A study of Mus musculus with 3 samples.

Results

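The 10 genes described here make the central parts of antigen presentation by the major histocompatibility complex (MHC). The 6 of class I are H2-K1, H2-D1, B2m, Tap1, Tap2 and Tapbp, and the 4 of class II are H2-Aa, H2-Ab1, Cd74 and Ciita. Members were all probe sets annotated to these genes on the array, a probe set being a group of short probes read out as 1 signal. The 10 genes are part of 18193 named genes on the array and have 33 probe sets of their own. Of these, 24 have an identifier ending in _s_at, _x_at or _a_at, which marks probes that may also match other transcripts or several transcripts of the gene, and 9 do not. A further 3 probe sets are annotated to a member together with another gene and are given apart.

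RNA came from primary cultures of mouse ciliary body pigment epithelium (CBPE), retinal pigment epithelium (RPE) and iris pigment epithelium (IPE), each on 1 biotin-labelled array. The donors of all 3 were adult C57BL/6 mice of 6 to 8 weeks, with no other genotype or treatment given. CBPE and IPE grew in RPMI 1640 with 10% fetal bovine serum and RPE in DMEM with 20%, so the effects of medium and tissue cannot be told apart where RPE is compared, and all were kept overnight without serum before extraction. More than 95% of the CBPE and RPE cells, both at 14 days of culture, and more than 99% of the IPE cells were positive for cytokeratin. The tissues were digested and triturated, with no sorting step described, so cells of neighbouring tissues can be present. In such bulk RNA, more cells of a type and more RNA per cell cannot be told apart. The series asks how T cells respond to ocular pigment epithelium, and the genes here encode the molecules that show peptides to T cells.

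Class I molecules sit on most nucleated cells and show peptides from inside the cell to CD8 T cells. The heavy chain, encoded by H2-K1 or H2-D1, pairs with β2-microglobulin, encoded by B2m, and is loaded with peptides that the transporter of Tap1 and Tap2 carries into the endoplasmic reticulum, where tapasin, encoded by Tapbp, holds the empty molecule at the transporter. Class II molecules show peptides from endosomes to CD4 T cells and belong mainly to dendritic cells, B cells and macrophages, while interferon-γ can induce them in other cells, pigment epithelium among them. Their α and β chains are encoded by H2-Aa and H2-Ab1, the invariant chain that guides them by Cd74, and the transactivator that switches them on by Ciita. C57BL/6 mice carry the H2 haplotype b, in which H2-Ea is not transcribed, so the H2-Ea probe sets serve as a background reading for class II.

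The sequences before the transcription starts of H2-K1, H2-D1, B2m and H2-Aa are shown. The first 3 gave bright signals that were highest in CBPE at the deposited scaling, and H2-Aa, which shares letters with them, was dim. RefSeq promoters of build GRCm38.p6 were at hand for 6 of the 10 members. Each window is the 200 bases before the annotated start, 5′ to 3′ on the gene's strand: chr17:34000348-34000547 (minus strand, the more upstream of 2 listed starts) for H2-K1, chr17:35262894-35263093 (plus) for H2-D1, chr2:122147487-122147686 (plus) for B2m and chr17:34287824-34288023 (minus) for H2-Aa. Capitals mark matches on either strand to 5 motifs. They are the Y box core CCAAT, the CRE-like forms ending in GT (TGACGT) and in GC, a κB-like form and a form of the interferon-stimulated response element.
H2-K1: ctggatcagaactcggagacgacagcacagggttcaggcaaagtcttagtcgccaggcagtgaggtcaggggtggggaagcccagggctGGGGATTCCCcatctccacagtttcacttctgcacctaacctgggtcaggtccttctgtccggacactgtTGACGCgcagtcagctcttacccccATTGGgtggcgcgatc
H2-D1: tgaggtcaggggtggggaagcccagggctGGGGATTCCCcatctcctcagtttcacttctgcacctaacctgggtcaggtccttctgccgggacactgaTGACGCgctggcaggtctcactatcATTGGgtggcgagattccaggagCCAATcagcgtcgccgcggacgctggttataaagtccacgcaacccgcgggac
B2m: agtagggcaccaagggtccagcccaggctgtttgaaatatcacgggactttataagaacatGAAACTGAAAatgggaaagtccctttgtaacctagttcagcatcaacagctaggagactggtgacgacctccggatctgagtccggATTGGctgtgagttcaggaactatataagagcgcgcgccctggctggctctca
H2-Aa: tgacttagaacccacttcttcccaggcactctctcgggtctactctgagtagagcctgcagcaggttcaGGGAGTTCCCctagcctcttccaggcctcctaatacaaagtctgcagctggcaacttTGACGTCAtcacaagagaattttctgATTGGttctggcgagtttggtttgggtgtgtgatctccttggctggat
The H2-K1 and H2-D1 windows had 127 identical bases among 140 aligned, and both held the κB-like form, the CRE-like form in GC and the Y box core in that order. The Y box, which NF-Y binds, had its core in all 4 windows and in 30.0% of 27025 promoter windows of the same length. The CRE-like form in GC, spelled TGACGC, was found in 5.42% of all windows. The form in GT, whose matches on the 2 strands overlap in H2-Aa, was found in 5.99%. The κB-like form was in H2-K1, H2-D1 and H2-Aa and in 1.18% of all windows, and the interferon element form was in B2m and in 2.33%. The X box core AGCAAC and, as a separate motif with 3 free bases, the γ-activated site form ttcnnngaa were searched too and had no match in the windows shown, against 10.2% and 5.62% of all windows. Of the other windows at hand, that of Tapbp held the Y box core and that of Tap1 held none of the letters searched. Tapbp, not shown, was bright too by its brighter probe set, at 1618 in CBPE, 1541 in RPE and 1219 in IPE. Only the exact letters of each form were searched, so a variant of an element in a window would be missed. The matches describe letters in a window and say nothing of binding.

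Values are deposited linear signals on a scale common to the 3 arrays. The floor, under which a signal was not read as a level, was the median of each array's probe sets, at 17.3 for CBPE, 16.8 for RPE and 14.5 for IPE, and bacterial controls absent from the samples reached 20.2, 16.6 and 7.9. The Actb control probe sets had 3′ to 5′ ratios of 2.26, 2.25 and 1.5 in the order CBPE, RPE, IPE, and the hybridisation controls, added in fixed amounts, averaged 3192, 1941 and 1239. A single array per culture gives no replicate error and allows no test, so each difference is set beside the disagreement between probe sets of 1 gene, whose SD on the log2 scale was 0.29 for CBPE minus RPE, 0.49 for CBPE minus IPE and 0.45 for RPE minus IPE. This SD was taken over probe sets above 100 on both arrays compared, so it does not measure the spread of dimmer ones. Of 13 pigment epithelium markers, 8 were above the floor in CBPE, 9 in RPE and 10 in IPE, with sums of 1180, 1799 and 5056, and 8 of the 12 measured were 2-fold or more lower in CBPE than in IPE. Dct, a melanin synthesis gene, was at 2 in CBPE, under the floor, against 286.5 in RPE and 1429 in IPE, and Tyrp1, another, at 67.2, 550 and 1388. Tyr, which encodes tyrosinase, was at 384, 493 and 1114, while the keratin gene Krt18 was highest in CBPE, at 422, 219 and 144. Rpe65, a defining gene of retinal pigment epithelium in the eye, was at the floor in all 3 cultures, also in the culture labelled RPE.

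All 3 cultures had bright signals of H2-K1, H2-D1, B2m and the brighter Tapbp probe set, while Tap1 reached at most 166 and Tap2 89.5. Signals were highest in CBPE for the heavy chains and, as deposited but not after quantile normalization, for B2m. Class II signals were at or near the floor in every culture except for Cd74 in RPE. Of 22 class I probe sets, 17 exceeded the floor on 1 array or more and 14 on all 3. Of 11 class II probe sets, 5 exceeded it on 1 array or more and 0 on all 3. For comparison, 67.6% of all probe sets of 1 gene exceeded it on 1 array or more. Of the 14 class I probe sets above the floor throughout, 12 were highest in CBPE, 1 in RPE and 1 in IPE, whereas 27.1% of all 16592 such probe sets were highest in CBPE, 26.9% in RPE and 46% in IPE. After quantile normalization 10 of the 14 were highest in CBPE, 1 in RPE and 3 in IPE, against 31.7%, 30.1% and 38.2% of all such probe sets. With equal array medians the counts were 11, 2 and 1, against 19.9%, 22.3% and 57.8%. These 14 are not independent readings, since 8 belong to H2-K1 and H2-D1, whose transcripts are alike.

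**Figure D1:**
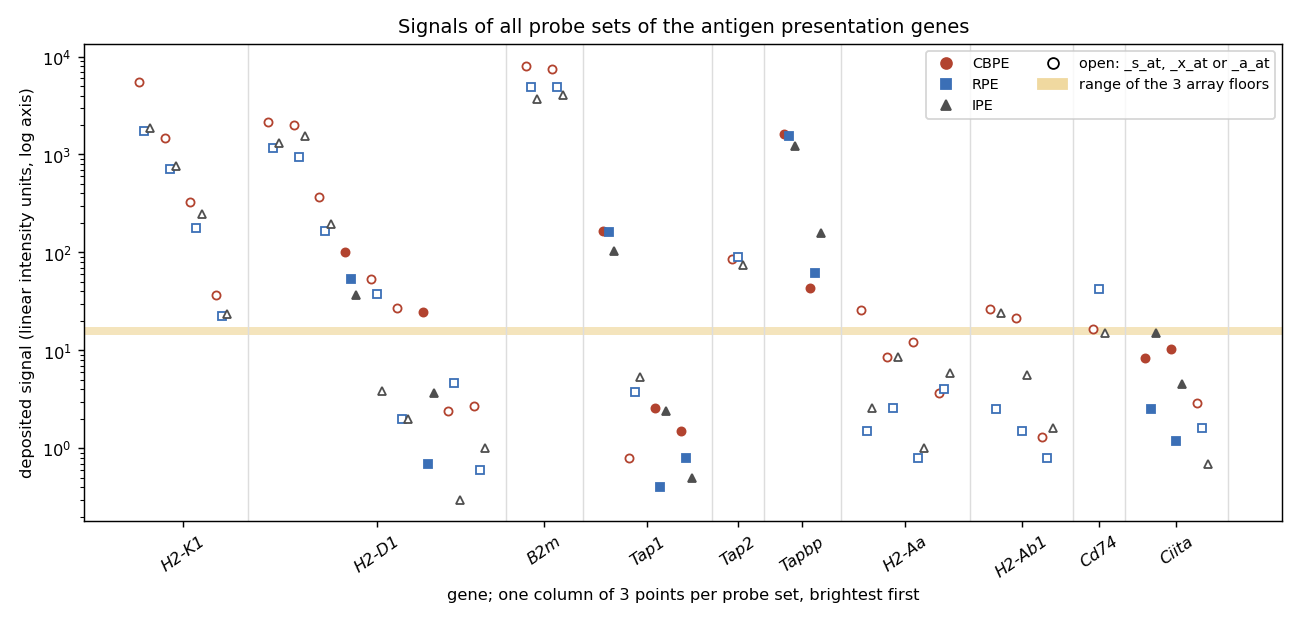
Deposited signal (log axis) of each of the 33 probe sets of the 10 genes in CBPE, RPE and IPE, 1 array each. Open symbols are probe sets whose identifier ends in _s_at, _x_at or _a_at, and the band spans the floors of 14.5 to 17.3. The bright H2-K1, H2-D1 and B2m probe sets have CBPE on top at the deposited scaling, and the class II probe sets lie around or under the band except Cd74 in RPE at 42.4.

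H2-K1 encodes the K heavy chain, and all its 4 probe sets end in _x_at. The brightest, 1425336_x_at, gave 5488 in CBPE, 1752 in RPE and 1857 in IPE. CBPE thus stood alone at the top, 3.13-fold above RPE and 2.96-fold above IPE, while RPE and IPE differed 1.06-fold. The next, 1451931_x_at, gave 1474 in CBPE, 718 in RPE and 769 in IPE. Probe set 1427746_x_at gave 328, 177 and 249 in the same order, and 1450534_x_at gave 36.5, 22.7 and 23.8. All 4 therefore put CBPE first, IPE in the middle and RPE last, with the gap between RPE and IPE at most 1.40-fold. Of the log2 differences of RPE minus IPE, only that of 1427746_x_at, at -0.49, exceeds the probe-set SD of 0.45. The log2 difference of CBPE minus RPE ran between 0.69 and 1.65 over the 4 and that of CBPE minus IPE between 0.40 and 1.56, so the brightest probe set gave the largest value of both. Of all genes measured in CBPE and RPE, 4.26% were at least 2-fold higher in CBPE and 3.75% at least 2-fold lower, and the difference of H2-K1 lay at percentile 99.0. Against IPE, 11.8% of genes were at least 2-fold higher in CBPE and 12.5% lower, and H2-K1 lay at percentile 95.6.

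H2-D1 encodes the D heavy chain and has 9 probe sets, 7 of them ending in _x_at. The brightest, 1425545_x_at, gave 2127 in CBPE, 1171 in RPE and 1304 in IPE. By it CBPE was 1.82-fold above RPE and 1.63-fold above IPE. Probe set 1451784_x_at gave 1992 in CBPE, 946 in RPE and 1532 in IPE, which puts CBPE 2.11-fold above RPE but only 1.30-fold above IPE. Probe set 1451683_x_at gave 364, 164 and 195 in that order. These 3 had the order CBPE, IPE, RPE, as in H2-K1. Their log2 differences of RPE minus IPE were -0.15, -0.70 and -0.25 in the order given, and only -0.70 exceeds the probe-set SD of 0.45. Of the 2 probe sets without a cross-hybridising ending, 1426324_at gave 100.5 in CBPE, 53.8 in RPE and 36.6 in IPE, so CBPE was again highest, at 1.87-fold and 2.75-fold, but RPE was 1.47-fold above IPE. The other, 1451934_at, exceeded the floor only in CBPE, where it read 24.4 against 0.7 in RPE and 3.7 in IPE. Of the dim remainder, 1450170_x_at gave 53.7 in CBPE, 38.0 in RPE and 3.9 in IPE, and 1452544_x_at gave 27.2 in CBPE against 2.0 in both others. The last 2, 1425614_x_at and 1427651_x_at, were at the floor on every array. All 4 H2-D1 probe sets above the floor on all 3 arrays were highest in CBPE, as were 27.1% of all such probe sets. The order of RPE and IPE depended on the probe set. Probe sets 1451934_at and 1452544_x_at passed the floor through CBPE alone, which fixed CBPE as their highest.

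Of the probe sets annotated to several genes, only that of H2-K1 together with H2-D1 exceeded the floor on all 3 arrays. It gave 342 in CBPE, 135 in RPE and 176 in IPE, which is 2.53-fold and 1.94-fold higher in CBPE. The one shared by H2-K1 and H2-Q5 exceeded the floor only in CBPE, with 25.1 against 13.3 and 13.2, which fixed CBPE as its highest. The one shared by H2-D1, H2-Q2 and Gm38417 was at the floor on all arrays. How far the heavy chain probe sets read each other's transcripts cannot be told apart here.

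B2m, which encodes the invariant light chain of class I, has 2 probe sets, both ending in _a_at. The brighter, 1452428_a_at, gave 8062 in CBPE, 4916 in RPE and 3721 in IPE, and the other, 1449289_a_at, gave 7391, 4835 and 4051. Both ordered the cultures as CBPE, RPE, IPE. CBPE was 1.64-fold above RPE by the brighter and 1.53-fold by the other, and 2.17-fold and 1.82-fold above IPE. RPE was 1.32-fold and 1.19-fold above IPE, log2 differences of 0.40 and 0.26 that are within the probe-set SD of 0.45. The order against IPE did not outlast quantile normalization: the log2 difference of CBPE minus IPE was 1.12 as deposited and -0.11 then, and that of RPE minus IPE was 0.40 and -0.39. CBPE minus RPE kept its sign, at 0.71 as deposited and 0.28 after quantile normalization. The hybridisation controls, added in fixed amounts, had the same order as B2m, at 3192 in CBPE, 1941 in RPE and 1239 in IPE. So did the brightest signal of each array, at 19333.5, 13848.7 and 8440.6. The part of such array-wide brightness in the B2m folds was not tested.

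Tap1 and Tap2 encode the subunits of the peptide transporter. Tap1 had 1 probe set above the floor, 1416016_at, at 166 in CBPE, 162 in RPE and 104 in IPE, and 3 at the floor on every array. CBPE and RPE were thus level, 1.03-fold apart, and stood 1.60-fold and 1.56-fold above IPE, log2 differences of 0.68 and 0.64 against probe-set SDs of 0.49 and 0.45. With equal array medians these were 0.42 and 0.43, and with the mean of its 4 probe sets, 3 of them at the floor, 0.36 and 0.32, all under those SDs. Tap2 was nearly even by its single probe set, 1453913_a_at, at 86.2 in CBPE, 89.5 in RPE and 74.0 in IPE. Its log2 differences of -0.05, 0.22 and 0.27, in the order CBPE minus RPE, CBPE minus IPE and RPE minus IPE, are all within the probe-set SDs. The Tap2 signals were under the limit of 100 used for those SDs, which may understate their spread. Tapbp, the tapasin gene, had 2 probe sets that disagreed. By 1421812_at it was at 1618 in CBPE, 1541 in RPE and 1219 in IPE, a spread of at most 1.33-fold. By 1450378_at it was at 43.8 in CBPE, 61.9 in RPE and 156 in IPE, which is 3.57-fold and 2.53-fold higher in IPE. No direction is given for Tapbp against IPE for that reason. The loading genes therefore did not share the high CBPE level of the heavy chains when set against RPE. At the deposited scaling H2-K1, H2-D1 and B2m lay at percentiles 99.0, 93.8 and 90.5 of all genes in CBPE minus RPE. Tap1, Tap2 and Tapbp lay at 52.8, 45.6 and 55.8. After quantile normalization the log2 differences of the first 3 were 1.37, 0.69 and 0.28, against 0.11, 0.05 and -0.02. B2m was then under the probe-set SD of 0.29, so its distance from the loading genes depended on the scaling.

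**Figure D2:**
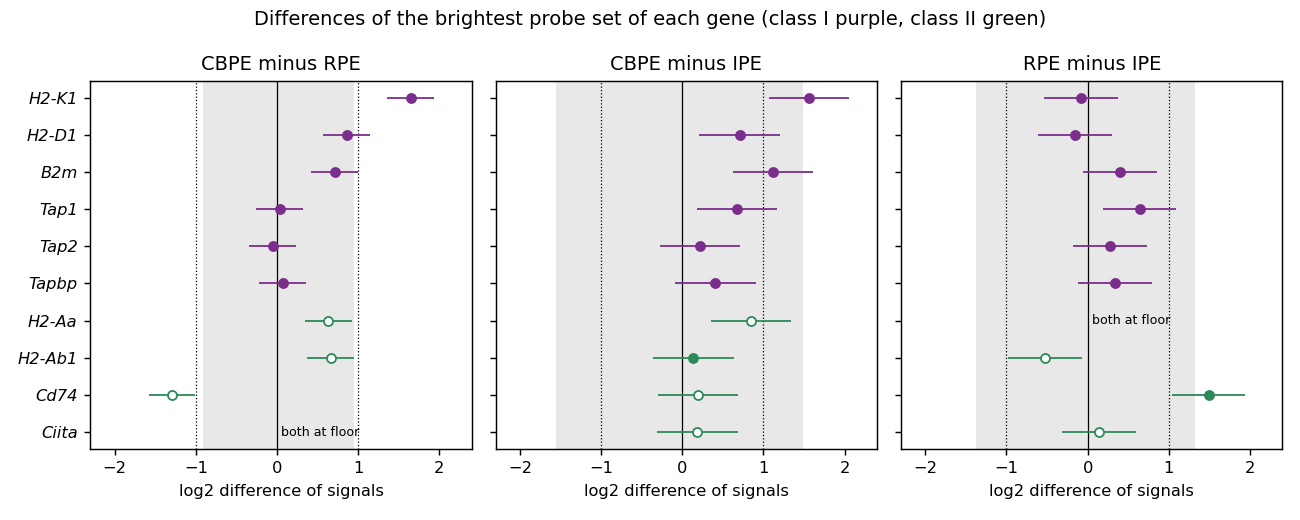
Log2 difference of signals of each gene's brightest probe set in the 3 comparisons, with bars for the SD between probe sets of 1 gene, which is not a replicate error. That SD comes from probe sets above 100 on both arrays and does not measure the spread of dimmer ones. Open circles have 1 side at the floor, grey spans the 5th to 95th percentile of all genes, and dotted lines mark 2-fold. Ciita in both comparisons with IPE and Cd74 in CBPE minus IPE lie right of 0. Only IPE was above its floor in these, so the unequal floors set their direction. H2-K1 lies right of 2-fold in both comparisons of CBPE, and Cd74 lies beyond 2-fold on the side of RPE in both comparisons of RPE.

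By the brightest probe set of each gene, 2-fold differences were few. Against RPE, CBPE was at least 2-fold higher for 1 of the 9 members measured, H2-K1, and lower for 1, Cd74, beside the backgrounds of 4.26% and 3.75% already given. Against IPE, CBPE was at least 2-fold higher for 2 of 10, H2-K1 and B2m, and lower for 0, beside 11.8% and 12.5%. RPE was at least 2-fold higher than IPE for 1 of 9, Cd74, and lower for 0, beside 9.87% and 10.5% of all genes. The median log2 difference of the 6 class I genes was 0.39 for CBPE minus RPE, 0.69 for CBPE minus IPE and 0.31 for RPE minus IPE, against 0.002, 0.04 and 0.02 for all genes. H2-K1 was 2-fold higher in CBPE than in RPE under every setting that kept a probe set of it, with log2 differences between 1.06 and 1.65, whereas against IPE it was between 0.88 and 1.56 and under 2-fold after quantile normalization (0.90) and with the mean of its probe sets (0.88).

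**Figure D3:**
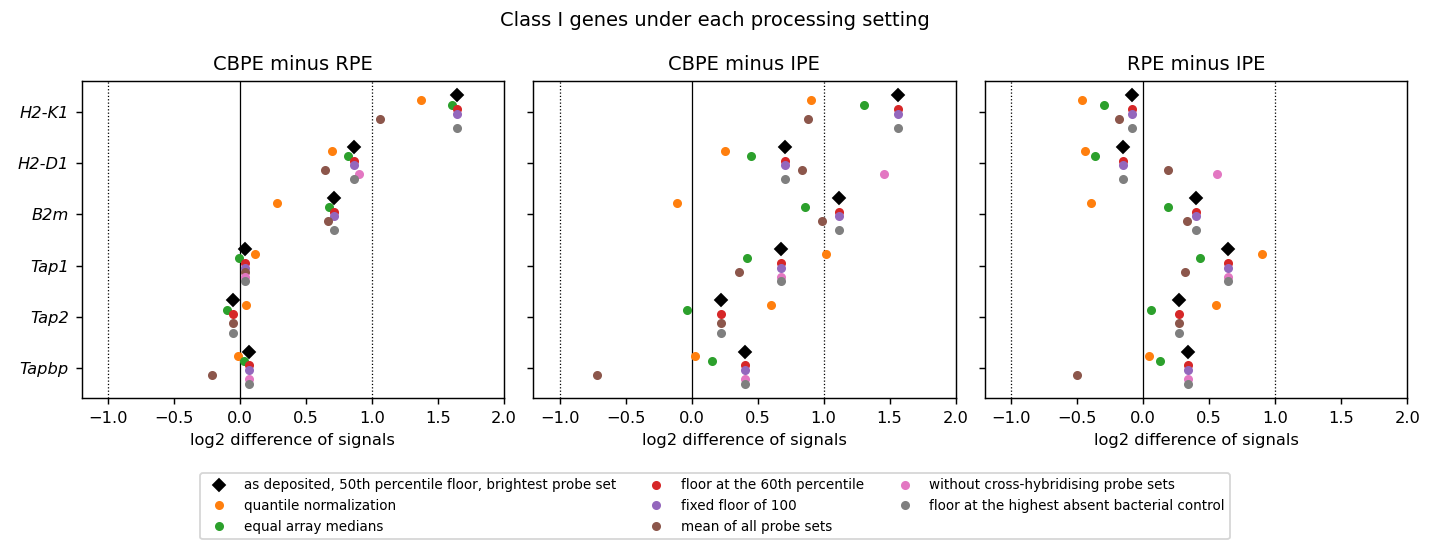
Log2 difference of signals of the 6 class I genes under each processing setting, with the deposited scaling as a black diamond and dotted lines at 2-fold. H2-K1, H2-D1 and B2m stay right of 0 in CBPE minus RPE in every setting that gave a value, and the quantile-normalized B2m points lie left of 0 in both comparisons with IPE.

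Class II chains were barely detectable. H2-Aa, the α chain gene, had 4 probe sets, all with cross-hybridising endings, of which only 1435290_x_at exceeded the floor, and only in CBPE, with 26.0 against 1.5 in RPE and 2.6 in IPE. The other 3 gave at most 12.2 in CBPE, 4.0 in RPE and 8.6 in IPE. H2-Ab1, the β chain gene, gave 26.6 in CBPE, 2.5 in RPE and 24.2 in IPE by 1450648_s_at, so RPE alone was at the floor. By 1451721_a_at it gave 21.5 in CBPE against 1.5 in RPE and 5.6 in IPE, and by 1425477_x_at it was at the floor on all arrays. The highest class II chain signal in CBPE, 26.6, was close to the 20.2 that absent bacterial controls reached there. In IPE the same H2-Ab1 probe set, at 24.2, was farther from these controls, which reached 7.9, and above the floor of 14.5. The 3 probe sets of H2-Ea, not transcribed in this strain, were at the floor everywhere, the brightest at 13.1 in CBPE, 10.1 in RPE and 0.9 in IPE. No chain probe set was above the floor in RPE.

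Cd74 and Ciita completed this picture with 1 exception. Cd74, the invariant chain gene, gave 16.6 in CBPE, 42.4 in RPE and 15.1 in IPE by its single probe set, 1425519_a_at. RPE alone was clearly above its floor, CBPE was under its own and IPE just above, which makes RPE at least 2.10-fold higher than CBPE and 2.81-fold higher than IPE. The IPE signal was so close to the floor of 14.5 that this fold is imprecise. With the floor at the 60th percentile the log2 differences shrank to -0.66 for CBPE minus RPE and 0.53 for RPE minus IPE, under 2-fold. Ciita, the class II transactivator gene, was at the floor in CBPE and RPE by all 3 probe sets, at most 10.4 and 2.5, and in IPE its brightest gave 15.2, just above the floor. The Cd74 signal in RPE thus stood without a signal of either chain or of Ciita in that culture.

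Leukocyte markers were set beside these values because macrophages can carry both classes. Of 17 macrophage and leukocyte markers, 15 were above the floor in CBPE, 9 in RPE and 6 in IPE, with summed signals of 2893, 628 and 410, and 12 had a CBPE signal 2-fold or more above that of RPE, and 12 above that of IPE. Lyz2, a lysozyme gene of macrophages, was at 1288 in CBPE, 232 in RPE and 131 in IPE, and Tyrobp, an adaptor of myeloid receptors, at 231, 27.7 and 14.4. Ptprc, the common leukocyte antigen gene, and Itgam were at the floor in all 3. Endothelial markers were likewise highest in CBPE, with 7 of 8 above the floor in CBPE, 3 in RPE and 2 in IPE and sums of 1493, 308 and 814. Those sums came mostly from Emcn, at 1115 in CBPE, 211 in RPE and 745 in IPE, which alone set IPE above RPE. Sums of the next 3 lists include signals under the floor and give no order. Dendritic cell markers summed to 77.8, 29.3 and 79.5 over 7 genes, with Flt3, Xcr1, Ccr7 and Cd83 at the floor everywhere. B cell markers summed to 44.7, 54.6 and 23.6 over 5 genes, with Cd79a, Cd79b and Ms4a1 at the floor everywhere and Pax5 and Blk just above it in RPE, at 18 and 20.5. T cell markers summed to 40.4, 37.2 and 41.8 over 6, of which only Cd8a was above it. Fibroblast markers, all 7 above the floor in every culture, summed to 43319, 31261 and 22912, mostly through 3 collagen genes, whereas Pdgfra of the same list was highest in IPE, at 777 in CBPE, 958 in RPE and 2020 in IPE. The summed macrophage and endothelial markers, like the heavy chains, were highest in CBPE, and the part of these cells in the class I signals was not tested.

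**Figure D4:**
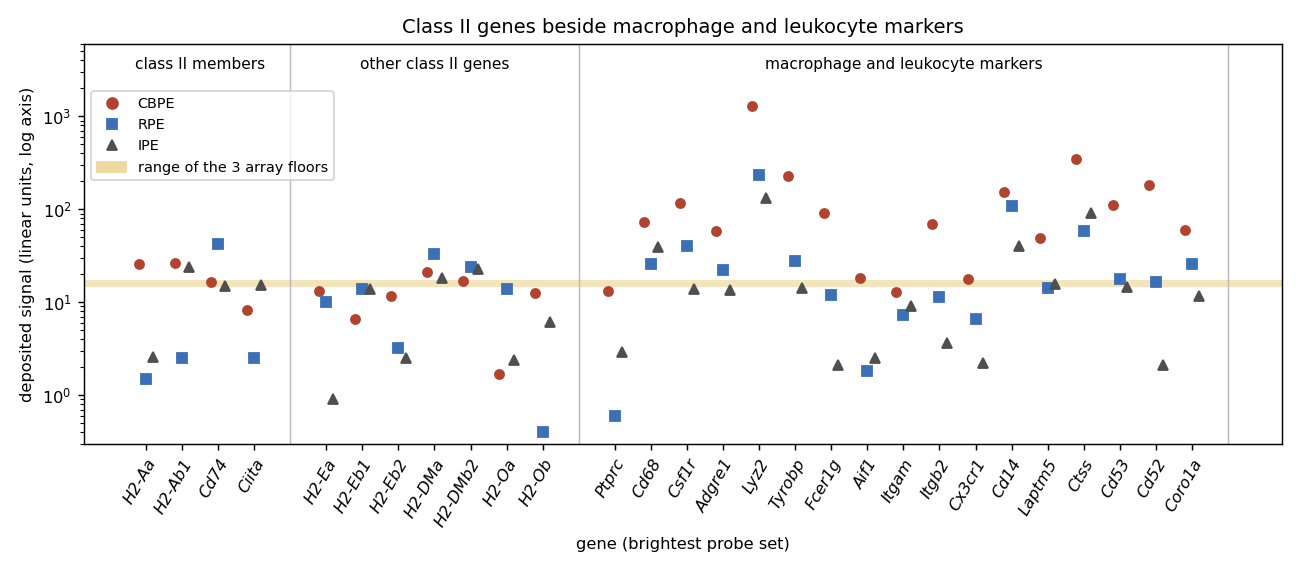
Deposited signals (log axis) of the class II members, the other class II genes and the macrophage and leukocyte markers in CBPE, RPE and IPE, by the brightest probe set of each gene. The band spans the floors of 14.5 to 17.3. Lyz2, Tyrobp and Ctss rise far above the band in CBPE, while no class II gene exceeds 42.4 in any culture.

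Other genes of the pathway were counted from 5 lists of 82 entries. Among further class I genes, 7 of 21 listed were above the floor and the rest were at it or had no probe set of their own. Of the 7, 1 was higher in CBPE by 2-fold or more and 1 lower when set against RPE, and likewise 1 and 1 against IPE, with median log2 differences of -0.09 and 0.58. Of 6 measured in RPE or IPE, 1 was higher and 1 lower in RPE, with a median of 0.35. Fcgrt, whose product is the neonatal Fc receptor and also pairs with β2-microglobulin, was at 1360 in CBPE, 1941 in RPE and 839.5 in IPE, 2.31-fold higher in RPE than in IPE. Cd1d1, which presents lipids to NKT cells, was 2.26-fold lower in CBPE than in RPE, at 85.6 against 194, and stood at 159 in IPE. Mr1, which presents vitamin B metabolites to MAIT cells, was highest in IPE, at 102 in CBPE, 108 in RPE and 220 in IPE. H2-Q10, a further class I heavy chain gene, exceeded the floor only in CBPE, with 38.6 against 14.7 in RPE and 7.6 in IPE. Of these 4 genes, only H2-Q10 had CBPE on top, as the heavy chains did. The H2-Q10 and Mr1 probe sets end in _a_at and that of Cd1d1 in _s_at. Whether the dim H2-Q10 signal came from H2-K1 or H2-D1 transcripts was not tested.

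The class I loading and proteasome list had 16 of 18 genes measured. CBPE set against RPE had 1 gene higher by 2-fold or more and 0 lower, CBPE against IPE had 3 and 1, and RPE against IPE had 2 and 1, with median log2 differences of -0.05, 0.47 and 0.36. Of all genes, 4.26% were higher and 3.75% lower in CBPE against RPE, 11.8% and 12.5% in CBPE against IPE, and 9.87% and 10.5% in RPE against IPE, and counts this small set no list apart from them. Nlrc5, the class I counterpart of Ciita, was the gene higher in CBPE than in RPE, at 50.9 in CBPE, 21.4 in RPE and 16.7 in IPE. Its brightness order put CBPE on top as for H2-K1, with folds of 2.38 against RPE and 3.05 against IPE, though its RPE and IPE signals were close to the floor. Psmb9, an interferon-inducible catalytic subunit of the immunoproteasome, was at 69.6 in CBPE, 97.3 in RPE and 29.0 in IPE, which is 2.4-fold and 3.36-fold above IPE. Tapbpl, a tapasin relative that edits peptides, was 2.28-fold higher in RPE than in IPE, at 82.7 against 36.3, with CBPE at 58.5. Sec61b, a subunit of the translocon, was at 2885 in CBPE, 2507 in RPE and 1276 in IPE. Npepps, a cytosolic aminopeptidase gene, was highest in IPE, at 249 in CBPE, 256 in RPE and 626 in IPE.

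Among the 7 other class II genes with a probe set of their own, 5 were at the floor on every array, H2-Ea and H2-Eb1 among them. H2-DMa, a chain of the peptide exchanger of class II, was at 20.9 in CBPE, 33.0 in RPE and 18.2 in IPE, and H2-DMb2, a chain of the same exchanger, at 17.1, 23.9 and 23, with no 2-fold difference. The list of class II processing genes and regulators had 17 of 19 genes above the floor, among them general lysosomal proteases and transcription factors. CBPE set against RPE had 1 gene higher by 2-fold or more and 1 lower, CBPE against IPE had 3 and 1, and RPE against IPE had 1 and 0, with median log2 differences of 0.27, 0.16 and -0.16. Ctss, the protease that trims the invariant chain and also a macrophage marker, was at 347 in CBPE, 58.5 in RPE and 92.3 in IPE. Rfxank, a subunit of the RFX complex on MHC promoters, was at 78.0 in CBPE and 69.3 in RPE against 11.5 in IPE, at least 5.38-fold and 4.78-fold. Rfx5, another subunit, was at 191, 202 and 141. Cst3, an inhibitor of cysteine cathepsins, was at 7115 in CBPE, 4854 in RPE and 2824 in IPE, and Creb1, whose product binds CRE-like sites, at 47.2, 125 and 157 by its brightest probe set. The RFX genes were thus above the floor in CBPE and RPE where Ciita was not.

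Genes of interferon-γ signalling lay on both sides of 0. Of 13 measured, 1 was higher in CBPE by 2-fold or more and 1 lower against RPE, and 2 were higher and 4 lower against IPE, where 11.8% and 12.5% of all genes were. Of 12 measured in RPE or IPE, 2 were higher and 1 lower in RPE, and the 3 median log2 differences were -0.05, -0.04 and -0.03. Ifngr2, a receptor chain gene, was at 114.5 in CBPE, 275 in RPE and 294 in IPE, and Jak1, a kinase of that receptor, at 323, 504 and 775. Socs3, a feedback inhibitor of JAK signalling, was at 367 in CBPE and 262 in RPE against 1147 in IPE. Of the induced chemokines, Cxcl9 was at 170 in CBPE and 48.5 in RPE against 1.3 in IPE, folds of at least 11.7 and at least 3.34, and Cxcl10 at 303 and 314 against 70.2, which is 4.31-fold and 4.47-fold. Irf1, which drives class I genes, was level at 301 in CBPE, 369 in RPE and 361 in IPE, and Ifng itself was at the floor in all. Under the deposited scaling, 31 differences of named list genes were at least 2-fold. All 31 kept their sign after quantile normalization and with equal medians, and 25 were at least 2-fold in both. This covers the scaling alone, since each rests on the brightest probe set of its gene. With the mean of all probe sets, list genes 2-fold lower in CBPE than RPE went from 3 to 1. Those higher in RPE than IPE went from 6 to 3. Agreement among the probe sets of each named list gene was not tested.

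**Figure D5:**
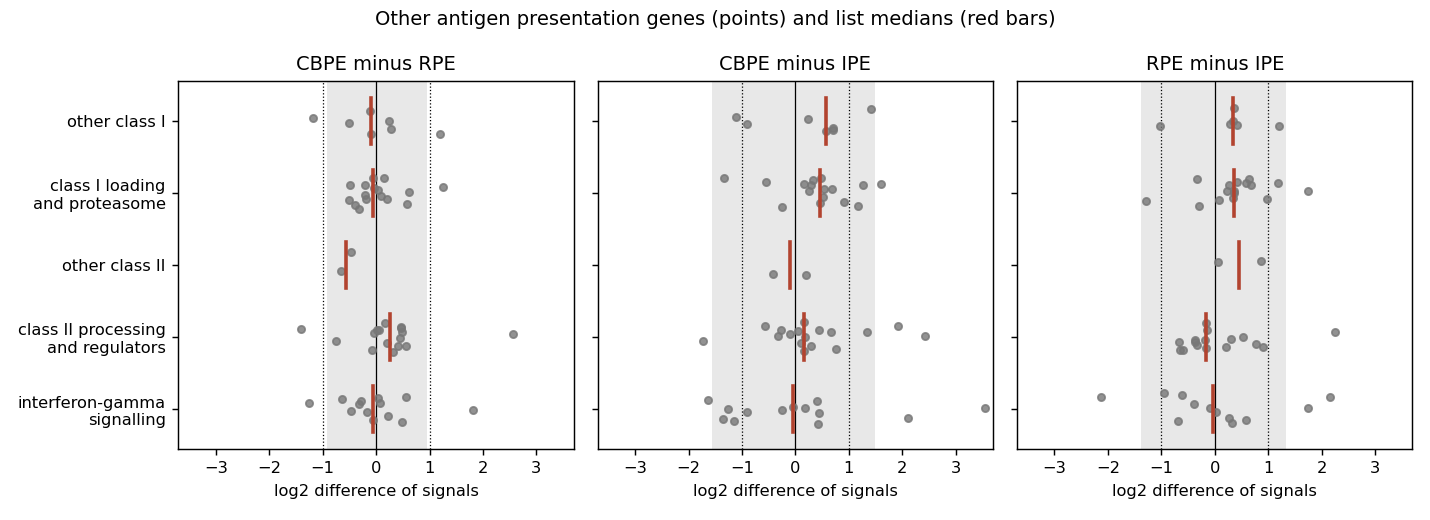
Log2 difference of signals of the other antigen presentation genes, 1 point per gene measured, with the list median as a red bar, grey for the 5th to 95th percentile of all genes and dotted lines at 2-fold. Most points lie within 2-fold, and the point farthest right in CBPE minus IPE is Cxcl9, whose IPE signal was at the floor.

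By their pattern over the 3 arrays, the genes most like B2m among 7728 with a signal above 100 on at least 1 array were Irak2, Prkab2, Thbs1, Ccdc58 and Aldoa, whose 3 log2 differences deviated from those of B2m by 0.06 to 0.14 in sum. This likeness was computed on the deposited scaling alone. Quantile normalization turned the sign of B2m in both comparisons with IPE, and whether these genes moved with it was not tested. Thbs1, the gene of thrombospondin-1 named in the series title, was at 6419 in CBPE, 3832 in RPE and 2992 in IPE by its brightest probe set. Those most like Cd74 were Alcam, Cbr3, Ech1, Sostdc1 and Cdkn1c, with deviations of 0.12 to 0.48. Alcam was at 44.5 in CBPE, 105 in RPE and 37.3 in IPE. With 3 arrays many genes share any given order, and the floors set part of the Cd74 pattern.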

How the data were processed

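What the authors deposited is a linear intensity for each of 45101 probe sets on the CBPE, RPE and IPE arrays. Their software and summary method: not given in the sources used here. Each array had a 2% trimmed mean of 100.001, and this scale was kept. Symbols came from a 2016 annotation of the platform, updated by gene identifier to RefSeq, with 34945 non-control probe sets of 1 gene and 932 of several. Signals under the floor (50th percentile of non-control probe sets) were set to it before log2. For each gene the probe set brightest by mean log2 signal was taken, and the gene was counted as different at 2-fold with at least 1 side above the floor. Where 1 side was at the floor, the fold was taken over the higher of that floor and the highest absent bacterial control, of 27. With 1 array per culture no test was possible, and the number of arrays limits the precision. Named were all members and, from each list and comparison, up to 4 genes at least 2-fold different taken by mean log2 signal, besides single genes set beside them (Irf1, Ifng, Rfx5, H2-DMa, H2-DMb2, the markers), which were chosen after their values were seen. The members and lists were chosen with earlier results of these data known. Alternatives were another scaling, other floors, the mean of all probe sets, no cross-hybridising probe sets and a 1.5-fold limit. The calling steps were tested on simulated data. Python 3.11.15, numpy 2.4.6, pandas 2.3.3 and matplotlib 3.10.9 were used.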

Additional observations from a re-analysis of the deposited data

How the results depend on the processing

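With 1 array per culture there was no replicate to leave out. No paired analysis was possible because each culture had 1 array. Values are log2 differences in the order given, with the deposited value in brackets. Of 158 recomputed member differences 18 changed sign: those of B2m, Tapbp and H2-D1 below, and small ones of Tap1, Tap2, H2-Ab1, Cd74 and Ciita. Of 84 recomputed list medians 6 changed sign. In CBPE minus IPE these medians ran between 0.24 and 0.58 for other class I, 0.21 and 0.47 for class I loading, -0.096 and 0.17 for class II processing, and -0.30 and 0.21 for interferon-γ signalling. With quantile normalization, B2m was at 0.28 for CBPE minus RPE (0.71 as deposited), -0.11 for CBPE minus IPE (1.12) and -0.39 for RPE minus IPE (0.40). H2-K1 was at 0.90 for CBPE minus IPE (1.56), 1 member was 2-fold higher in CBPE than IPE (2), and the fibroblast marker median was 0.28 for CBPE minus IPE (1.13) and 0.090 for RPE minus IPE (0.69). Equal array medians also gave 1 such member in CBPE minus IPE. Equal medians moved the median of all genes by -0.25 in CBPE minus IPE and by -0.21 in RPE minus IPE, and quantile normalization by 0.092 in CBPE minus IPE.

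With the floor at the 60th percentile, Cd74 was at -0.66 for CBPE minus RPE (-1.29) and 0.53 for RPE minus IPE (1.49), so 0 members were 2-fold lower in CBPE than RPE and 0 higher in RPE than IPE. List genes higher in CBPE than RPE numbered 2 (4), the endothelial median was 1.00 for CBPE minus RPE (1.70) and 0.89 for CBPE minus IPE (1.91), and the macrophage median was 0.18 for RPE minus IPE (0.71). A fixed floor of 100 also left 0 members in those Cd74 calls. It gave 1 list gene higher (4) and 1 lower (3) for CBPE minus RPE, 4 higher (9) for CBPE minus IPE and 2 higher (6) for RPE minus IPE. The macrophage medians were 0.88 for CBPE minus RPE (1.56) and 0.88 for CBPE minus IPE (2.05), and the pigment epithelium medians -0.36 (0.00) and -1.68 (-2.302). A floor at the highest absent bacterial control, chosen after seeing the data, gave macrophage medians of 2.07 and 2.65 in these comparisons and 1.72 for H2-Aa in CBPE minus IPE (0.84).

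The mean of all probe sets put H2-K1 at 1.06 for CBPE minus RPE (1.65) and 0.88 for CBPE minus IPE (1.56), H2-Aa at 0.19 (0.63) and H2-Ab1 at 0.35 (0.66) for CBPE minus RPE, Tapbp at -0.71 for CBPE minus IPE (0.41) and -0.50 for RPE minus IPE (0.34), and H2-Ab1 at -0.034 for RPE minus IPE (-0.53). It gave 0 members higher in CBPE than IPE, 1 list gene lower in CBPE than RPE, 3 higher in RPE than IPE and an endothelial median of 1.37 for CBPE minus RPE. Without cross-hybridising probe sets, H2-K1, B2m, Tap2, H2-Aa, H2-Ab1 and Cd74 had no value. H2-D1 was then at 1.46 for CBPE minus IPE (0.71) and 0.56 for RPE minus IPE (-0.15). Members called were 0 higher and 0 lower for CBPE minus RPE, 1 higher for CBPE minus IPE and 0 higher for RPE minus IPE. The macrophage medians were 2.43 for CBPE minus RPE and 2.65 for CBPE minus IPE, and for CBPE minus RPE the endothelial median was 0.82 and the pigment epithelium median -0.68. With a 1.5-fold limit, 5 members were higher in CBPE than RPE, 5 in CBPE than IPE and 2 in RPE than IPE. List genes were 6 lower for CBPE minus RPE, 15 higher for CBPE minus IPE, and 13 higher and 9 lower for RPE minus IPE. The share of all genes at the 1.5-fold limit was not computed, so these counts set neither the members nor the lists apart. Where a value moved, the cause was not tested. Signals near the floor limit every class II value.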
